A study of Sus scrofa with 6 samples.

Results

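The anterior and middle HOX genes described here are HOXA2, HOXA3, HOXA4, HOXA5, HOXA7, HOXB3, HOXB7 and HOXD8, 8 of the 27 HOX genes and of the 11078 genes that could be named on the array. They were taken by gene symbol, through probe sets whose platform annotation gives a single symbol, and each of the 8 had exactly 1 such probe set. Their RNA was measured in 6 primary cultures of bone marrow mesenchymal stem cells, the plastic-adherent stromal cells of marrow. All cultures came from female American Yorkshire pigs aged 4 months and were harvested at passage 0 and 80% confluence. The symphysis of the mandible, at the chin, was the source of 3 cultures, and the tibia that of the other 3. Both kinds of marrow came from 3 pigs, and no label says which mandibular and which tibial culture shared an animal. Whole marrow was plated without sorting, so other adherent cells could be present, and in such bulk samples fewer cells of a type and less RNA per cell cannot be told apart.

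HOX genes encode homeodomain transcription factors that give cells an address along the body axis. They lie in 4 clusters, HOXA to HOXD, and genes with the same number in different clusters are paralogs. Genes with low numbers are switched on first and closest to the head, and genes with high numbers act further back and towards the ends of the limbs. Most of the jaw skeleton forms from cranial neural crest of the first pharyngeal arch, in which HOX genes are silent, while HOXA2 marks the arch behind it. Limb mesenchyme, which forms the tibia, uses HOXA and HOXD genes, and adult stromal cells often keep the HOX pattern of their origin. The comparison of jaw with tibial cultures addresses whether the levels of these genes differ between the sites.

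Levels are the authors' RMA values on the log2 scale, so that 1 unit is a 2-fold difference. Array medians lay between 5.63 and 5.71. The deposited values carry no call of detection above background. As a guide to low signal, 18 measured genes of other organs, such as ALB of liver and UMOD of kidney, had mean levels from 1.98 to 5.74 with a median of 3.73. Their range over the 6 arrays, the highest minus the lowest level, was 0.13 to 0.80 with a median of 0.39. A level also depends on the probes, so this span is only a rough guide, and a level above it does not show detection. Differences from levels inside it are given on the log2 scale without a fold.

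With HOX genes set aside, the arrays did not separate by label. Over the 27528 probe sets that remain without the 30 that name a HOX gene, the array labelled tibial 3 was most like mandibular 3 (r = 0.9913). Its mean correlation was 0.9869 with the mandibular arrays and 0.9715 with the tibial arrays. The array labelled mandibular 2 had close mean correlations with both sites, 0.9817 within its own and 0.9808 across. For 5 of the 6 arrays the most similar array was of the other site, as with tibial 3 for mandibular 1 (r = 0.9886) and tibial 2 for mandibular 2 (r = 0.9836), and tibial 1 was the exception. The first principal component, with 49.5% of the variance, scored mandibular 1, mandibular 3 and tibial 3 at -25.9, -39.2 and -35.5 and mandibular 2, tibial 2 and tibial 1 at 10.2, 28.6 and 61.7. The craniofacial transcription factor genes ALX1, LHX8 and PAX9 were arranged in the same way. ALX1 measured 8.08 and 7.44 on mandibular 1 and 3 and 7.97 on tibial 3, but 3.86 on mandibular 2 and 3.90 and 3.54 on tibial 1 and 2. LHX8 measured 8.26, 8.25 and 8.67 on the first set and 3.70, 4.77 and 4.10 on the second. PAX9 measured 7.35, 7.35 and 7.80 on the first and 5.78, 5.01 and 5.75 on the second. BARX1, a tooth and jaw gene, ran the other way, at 7.45 on mandibular 2 and 6.37 and 6.63 on tibial 1 and 2. It measured 5.91 and 5.80 on mandibular 1 and 3 and 5.65 on tibial 3. ALX4 stayed between 4.73 and 5.31 on all arrays. On the first component and in ALX1, LHX8 and PAX9, the arrays labelled mandibular 2 and tibial 3 thus lay with arrays of the other site. No label says whether these 2 were exchanged, which was not tested, and an exchange would change what each site difference compares. Sites are called by their labels throughout, and the site test was also run without these 2 arrays.

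HOXA7, HOXA5 and HOXD8 varied most among the 8 genes, and their high and low levels did not follow the site labels. HOXA7, a homeodomain factor of the trunk, measured 5.26, 8.40 and 5.23 on mandibular 1, 2 and 3 and 8.01, 7.92 and 5.89 on tibial 1, 2 and 3. The array labelled mandibular 2 was thus the highest of all and tibial 3 the lowest of its site, so the sites overlapped. From the lowest array to the highest the range was 3.16. When the arrays were put in order, the only gap above the residual SD of 1.54 was that of 2.03 between tibial 3 and tibial 2. Neighbours on either side of that gap were closer, such as mandibular 1 and 3 with 0.02 or tibial 1 and 2 with 0.09. The residual SD is taken around the site means. It thus includes the distance of mandibular 2 and tibial 3 from the other arrays of their sites. A gap below it does not show equal levels.

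**Figure D1:**
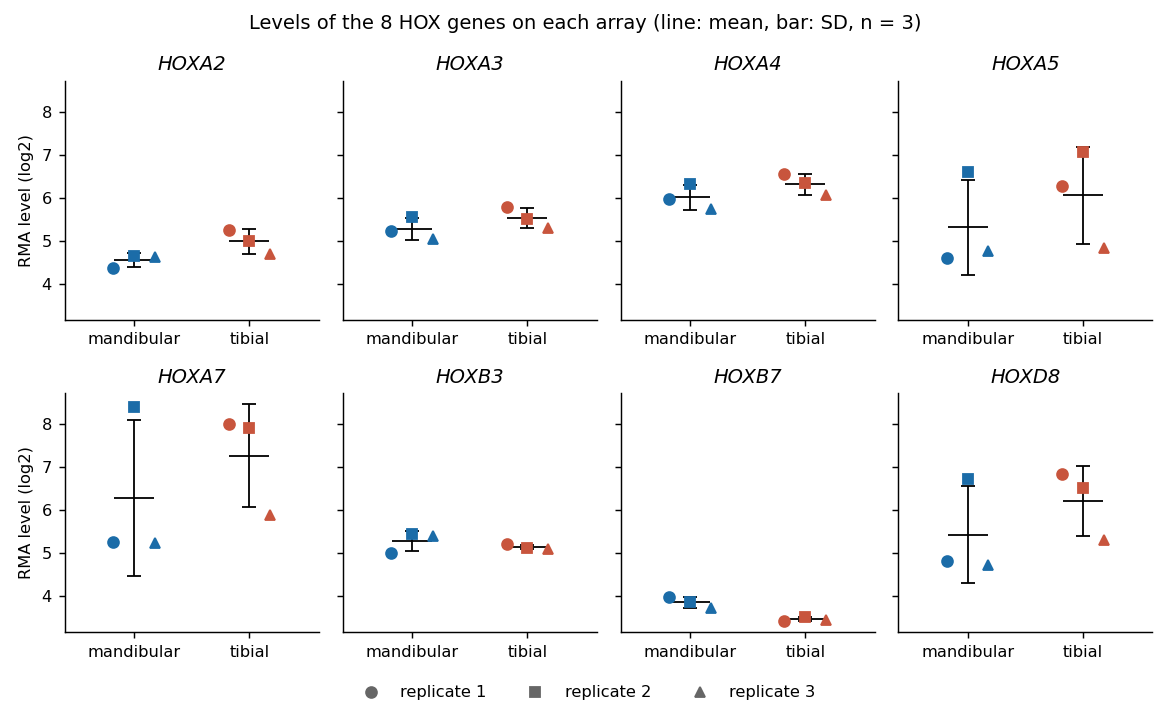
RMA level (log2) of the 8 HOX genes on each array, by site label on the horizontal axis; symbols stand for replicates, lines for means and bars for SD (n = 3). HOXA5, HOXA7 and HOXD8 fall into high and low arrays within each site, with mandibular 2 high and tibial 3 low, while HOXB7 is the gene with a gap of 0.19 between the sites.

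HOXA5, a regulator of thoracic patterning and of lung and fat development, showed the same arrangement at a smaller scale. It measured 4.61, 6.60 and 4.76 on mandibular 1, 2 and 3 and 6.28, 7.07 and 4.84 on tibial 1, 2 and 3. The 3 low arrays lay within 0.23 of each other, and the step from tibial 3 to the next array, tibial 1, was 1.45 against a residual SD of 1.12. The range was 2.47, and here tibial 2 was the highest array.

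HOXD8, the only gene of the HOXD cluster among the 8 and a paralog group 8 gene of the trunk, was also arranged this way. It measured 4.82, 6.74 and 4.74 on mandibular 1, 2 and 3 and 6.85, 6.52 and 5.30 on tibial 1, 2 and 3. Its range was 2.11, with a step of 1.22 between tibial 3 and tibial 2 against a residual SD of 0.99. The array labelled mandibular 2 lay 0.06 above the mean of tibial 1 and 2 and 1.96 above the mean of mandibular 1 and 3. The array labelled tibial 3 lay 1.38 below the mean of tibial 1 and 2 and 0.52 above that of mandibular 1 and 3. For HOXA7 and HOXD8 tibial 3 was thus the highest of the 3 low arrays, by 0.63 and 0.48. Both gaps were below the residual SD, which does not show equal levels.

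All 3 of these genes had a range above 2 log2 units, which 3.6% of the 27558 probe sets had. A range of at least 1 unit was reached by the same 3 of the 8 genes and by 16.1% of probe sets. None of the 18 genes of other organs had a range as large as that of these 3 genes. On the low arrays, in contrast, HOXA5 and HOXD8 measured 4.61 to 5.30, within the span of mean levels of the genes of other organs, so such levels cannot be separated from background. HOXA7 was at 5.23 to 5.89 on those arrays, near the upper end of that span.

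HOXA2, HOXA3 and HOXA4, the more anterior genes of the HOXA cluster, had small ranges. HOXA2, which specifies the second pharyngeal arch and the hindbrain, measured 4.37, 4.66 and 4.64 on mandibular 1, 2 and 3 and 5.26, 5.0 and 4.70 on tibial 1, 2 and 3. All mandibular values were below all tibial values, but mandibular 2 and tibial 3 were only 0.04 apart. Levels fell within the span of the genes of other organs, while the range of 0.89 was above each of theirs.

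HOXA3, which is needed for thymus, parathyroid and throat development, measured 5.23, 5.56 and 5.05 on the mandibular arrays and 5.79, 5.52 and 5.31 on the tibial arrays, in order of replicate. The sites overlapped through mandibular 2, which lay above tibial 2 and 3. HOXA4, a gene of the cervical region, measured 5.99, 6.32 and 5.75 and then 6.55, 6.35 and 6.07, with overlap through mandibular 2 and tibial 3 again. No neighbouring arrays of HOXA3 or HOXA4 differed by more than the residual SD of 0.25 and 0.26.

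The same set of arrays was highest in each of these HOXA and HOXD genes except HOXA2. In 5 of the 8 genes, HOXA3, HOXA4, HOXA5, HOXA7 and HOXD8, the 3 highest arrays were mandibular 2, tibial 1 and tibial 2. The order within that set differed from gene to gene, and in HOXA3 and HOXA4 it rests on gaps below the residual SD. The set was chosen after the values were seen and is no group of the study. Of all probe sets 8.08% had the same 3 arrays on top, and 10.5% had them at the bottom.

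HOXB3 and HOXB7, the HOXB paralogs of HOXA3 and HOXA7, did not take part in this arrangement. HOXB3, a gene of the hindbrain and neck, measured 5.01, 5.46 and 5.40 on mandibular 1, 2 and 3 and 5.21, 5.13 and 5.11 on tibial 1, 2 and 3. Its range of 0.45 was smaller than that of 5 of the 18 genes of other organs, and mandibular 1 was its lowest array. HOXB7, a trunk gene like HOXA7, measured 3.99, 3.86 and 3.72 on the mandibular and 3.43, 3.53 and 3.46 on the tibial arrays. Here the sites did not overlap, with the mandibular arrays higher. These levels, with a mean of 3.66, lie within the span of the genes of other organs and cannot be separated from background, so the direction is a difference in signal only.

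**Figure D2:**
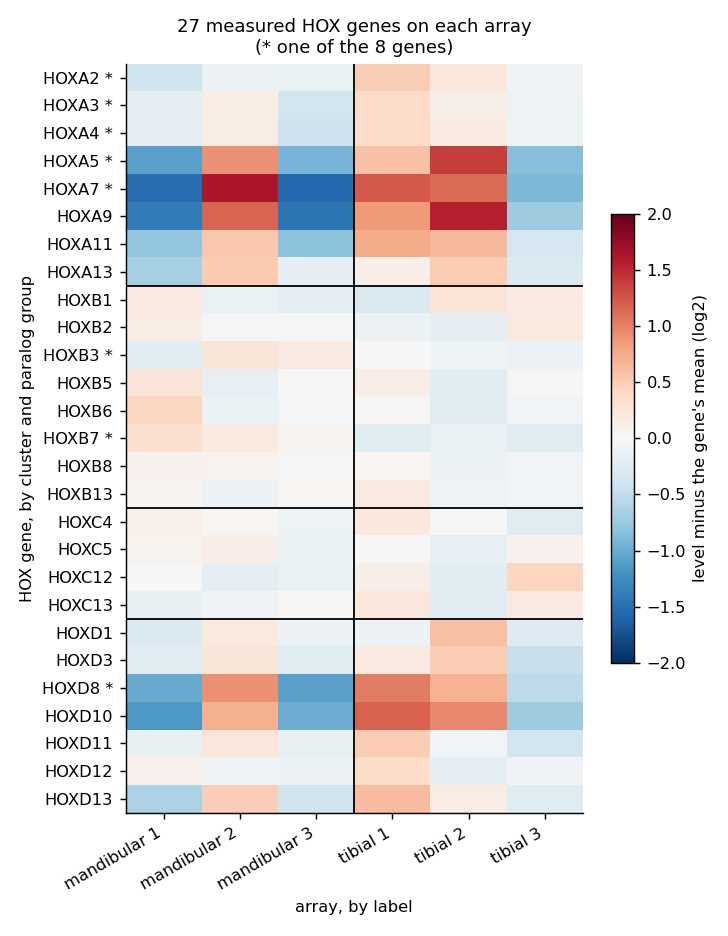
Level of each of the 27 measured HOX genes (rows, by cluster and paralog group) on each array (columns, by label), as the difference from the gene's own mean over the 6 arrays in log2 units; stars mark the 8 genes. Mandibular 2, tibial 1 and tibial 2 are red and the other arrays blue in HOXA5 to HOXA11 and in HOXD8 and HOXD10, while rows of the HOXB and HOXC clusters are pale.

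No member was called between the labelled sites. With limma and Benjamini-Hochberg adjustment over all probe sets, 0 of the 8 genes and 0.0% of the 27558 probe sets were called at an adjusted p under 0.05, and the adjusted p was 0.9995 for each member. At an unadjusted p under 0.05 there were 2 members, HOXB7 (unadjusted p = 0.0147 in limma) and HOXA2 (unadjusted p = 0.0455 in limma), against 3.03% of all probe sets. These are also the 2 members without overlap between the sites, which 6.92% of all probe sets showed, 3.35% with mandibular and 3.57% with tibial arrays higher. The mandibular mean was below the tibial mean for 6 of the 8 members, all 5 HOXA genes and HOXD8, and for 49.0% of all probe sets. The median difference, mandibular minus tibial, was -0.37 over the members and 0.00 over all probe sets.

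The intervals show how little these 6 arrays fix the larger differences. The mandibular mean of HOXA7 was 6.29 ± 1.82 (SD, n = 3) and its tibial mean was 7.27 ± 1.20 (SD, n = 3). The difference of -0.98 (SE 0.98) had a 95% interval from -3.32 to 1.37. For HOXD8 the means were 5.43 ± 1.13 (SD, n = 3) for mandibular and 6.22 ± 0.82 (SD, n = 3) for tibial cultures, and the difference of -0.79 had an interval from -2.30 to 0.72. HOXA5 had 5.32 ± 1.11 (SD, n = 3) against 6.06 ± 1.13 (SD, n = 3), and its difference of -0.74 had an interval from -2.46 to 0.97. A difference of several fold is inside the interval of each of these genes, so the missed threshold does not show equal levels.

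The 5 other members had narrow intervals and small differences. HOXA2 differed by -0.43 (interval -0.85 to -0.01), HOXA4 by -0.30 (interval -0.77 to 0.16) and HOXA3 by -0.26 (interval -0.70 to 0.18). HOXB7 averaged 3.86 ± 0.13 (SD, n = 3) against 3.47 ± 0.05 (SD, n = 3), with the mandibular mean higher by 0.38 (interval 0.10 to 0.66) at a level that cannot be separated from background. HOXB3 differed by 0.14 (interval -0.21 to 0.50). For these 5 genes no interval reached 1 log2 unit in either direction. The mean levels of HOXA2, HOXA3, HOXB3 and HOXB7, at 4.77, 5.41, 5.22 and 3.66, lay within the span of the genes of other organs. At such levels a small difference in signal does not show that RNA levels were close.

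Single arrays decided the size of the larger differences. Without mandibular 2 the difference of HOXA7 was -2.03, and without tibial 3 it was -1.67. Leaving out mandibular 1, mandibular 3, tibial 1 or tibial 2 gave -0.46, -0.45, -0.61 and -0.65. For HOXA5 the corresponding values were -1.38 without mandibular 2, -1.36 without tibial 3, -0.39 without mandibular 1, -0.46 without mandibular 3 and -0.24 without tibial 2. HOXD8 stood at -1.44 without mandibular 2, -1.25 without tibial 3, -0.48 without mandibular 1 or without tibial 1, and -0.44 without mandibular 3. Among the small differences, HOXA2 moved to -0.29 without tibial 1. HOXA3 moved to -0.40 without mandibular 2, -0.15 without mandibular 3 and -0.14 without tibial 1. HOXA4 moved to -0.17 without mandibular 3 and -0.19 without tibial 1. HOXB3 moved to 0.28 without mandibular 1, 0.06 without mandibular 2 and 0.09 without mandibular 3. No member turned direction or was called in any of these 6 fits.

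With both mandibular 2 and tibial 3 left out, HOXA7 and HOXD8 passed the test. This fit was chosen with the data already known and has 2 arrays per site, and 195 probe sets, 0.708%, were called in it, 151 of them, 0.548%, with lower mandibular levels. HOXA7 averaged 5.24 on mandibular 1 and 3 and 7.96 on tibial 1 and 2, a difference of -2.72 (SE 0.16; adjusted p = 0.007 in limma). HOXD8 averaged 4.78 and 6.68, a difference of -1.91 (SE 0.19; adjusted p = 0.0233 in limma). HOXA5 differed by -2.0 (SE 0.29) and missed the threshold (adjusted p = 0.0637 in limma). All 5 HOXA genes and HOXD8 had both mandibular values below both tibial values, as did 16.6% of probe sets. The differences of HOXA2, HOXA3 and HOXA4 were -0.63, -0.51 and -0.58, none of them called (adjusted p from 0.342 to 0.464 in limma). HOXB3 and HOXB7, at 0.04 and 0.37, were not called either. Macrophage and monocyte markers were lower in the mandibular cultures of this fit too, with 10 of 12 called and a median difference of -3.65, and their part in the HOX calls was not tested. The calls describe 4 arrays that were kept with their levels known and do not bear on the 2 left out.

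**Figure D3:**
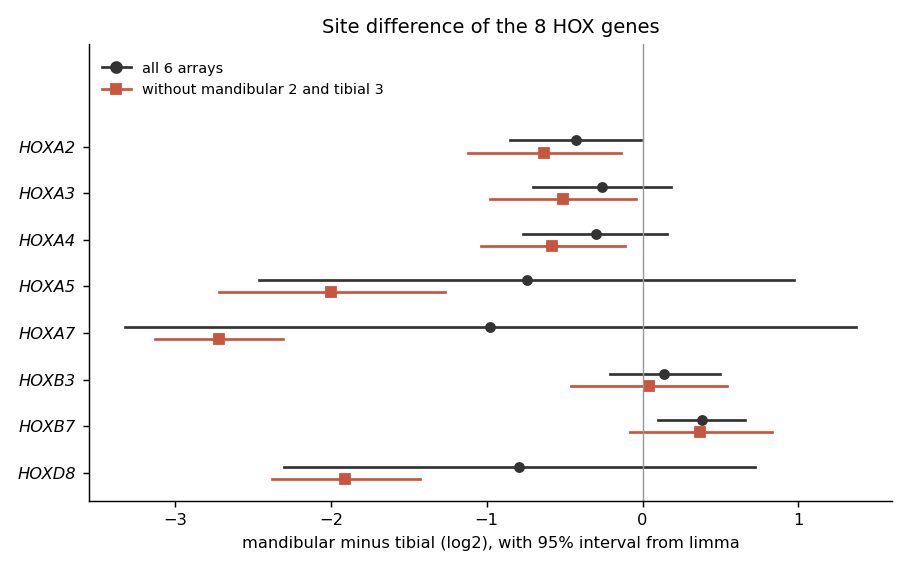
Difference between sites, mandibular minus tibial (log2), of each of the 8 genes with its 95% interval from limma, over all 6 arrays (circles) and without mandibular 2 and tibial 3 (squares, chosen with the data known). Over 6 arrays the intervals of HOXA5, HOXA7 and HOXD8 span 0, and over 4 arrays they lie below -1.

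The other HOX genes measured here place the 8 members within their clusters. In the HOXA cluster the range over the arrays was 0.89, 0.74 and 0.80 for HOXA2, HOXA3 and HOXA4, 2.47 and 3.16 for HOXA5 and HOXA7, and 3.02, 1.56 and 1.19 for HOXA9, HOXA11 and HOXA13. In the HOXD cluster it was 0.87 and 0.97 for HOXD1 and HOXD3, 2.11 for HOXD8 and 2.33 for HOXD10, with 0.88, 0.55 and 1.27 for HOXD11, HOXD12 and HOXD13. Among the measured genes, the widest ranges thus lay in the middle of both clusters. HOXA6, HOXA10, HOXD4 and HOXD9 were not measured. On all arrays HOXA2, HOXA11, HOXA13, HOXD1, HOXD12 and HOXD13 lay within the span of the genes of other organs. So did HOXB3, HOXB5, HOXB7, HOXB8, HOXB13 and all 4 measured HOXC genes. At such levels a small range in signal does not show that RNA levels were close. The part of signal level in these ranges was not tested. No gene of the HOXB cluster, 8 measured with a largest range of 0.62, and none of the HOXC cluster, 4 measured with a largest range of 0.66, reached 1 unit. Of the HOXC genes only HOXC4, HOXC5, HOXC12 and HOXC13 were measured, so the middle of that cluster is not analysed here.

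**Figure D4:**
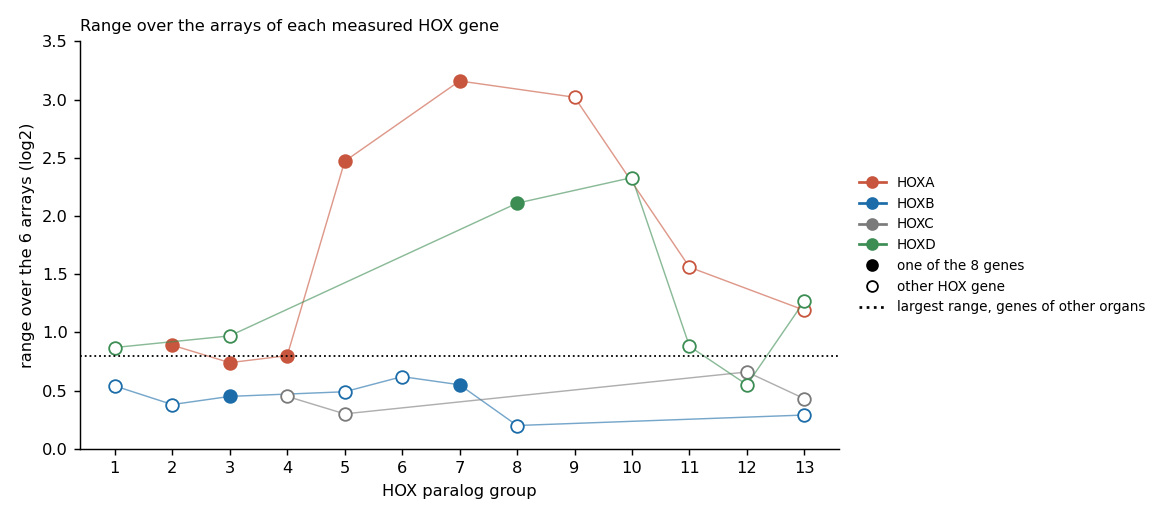
Range over the 6 arrays (log2, highest minus lowest) of each measured HOX gene by paralog group, with lines joining genes of a cluster, filled symbols for the 8 genes and open symbols for other HOX genes. The dotted line is the largest range, 0.80, among 18 genes of other organs; HOXA5, HOXA7 and HOXD8 lie at 2.11 to 3.16 and HOXB3 and HOXB7 at 0.45 and 0.55.

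The remaining HOX genes gave no call between the labelled sites in limma, and 0 of them had an unadjusted p under 0.05. Of 9 other measured genes of groups 1 to 8, 0 were called in either direction, 3 had lower mandibular means, and the median difference was 0.05. HOXB6, HOXB8 and HOXD1, which had the smallest p, differed by 0.16 (SE 0.17), 0.08 (SE 0.11) and -0.15 (SE 0.25). Of 10 genes of groups 9 to 13, 0 were called and all 10 had lower mandibular means, with a median of -0.21. HOXA9, the neighbour of HOXA7, measured 4.41, 6.97 and 4.35 on mandibular 1, 2 and 3 and 6.67, 7.37 and 5.10 on the tibial arrays. HOXD10 measured 4.41, 6.26 and 4.56 and then 6.74, 6.52 and 4.85, and a second HOXD10 probe set had the same 3 arrays on top with a range of 1.69. HOXA11, HOXA13 and HOXD13 ranged by 1.56, 1.19 and 1.27 over the arrays, and none was called (adjusted p = 0.9995 in limma for each). In the fit without mandibular 2 and tibial 3, chosen with the data known, 3 of the 10 genes of groups 9 to 13 were called. The share over all probe sets was 0.708%. The 3 were HOXA9, HOXA11 and HOXD10, all lower in mandibular cultures (adjusted p from 0.0145 to 0.0318 in limma). HOXA11 lay at 3.92 to 5.48 over the 6 arrays, within the span of the genes of other organs. Of the 9 other genes of groups 1 to 8, 0 were called in that fit.

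Genes with profiles most like those of the 3 variable members were found by the mean absolute difference over the 6 arrays, after each gene was centred on its own mean, among 1636 other genes with a range of at least 1. For HOXA7 they were LGALS9, a galectin gene, at 0.13, the adenylate cyclase gene ADCY2 at 0.26 and the ceramide synthase gene CERS6 at 0.26. LGALS9 measured 4.63, 7.81 and 4.83 on mandibular 1, 2 and 3 and 7.62, 7.33 and 4.98 on tibial 1, 2 and 3. Its high and low sets of arrays were those of HOXA7, with another order within the low set. For HOXA5 they were the G protein subunit gene GNA14 at 0.17, the protease gene PRSS23 at 0.18 and TMEM47 at 0.20. For HOXD8 they were PRICKLE2, of planar cell polarity, at 0.14, HOXD10 at 0.18 and CPNE8 at 0.19. Among the members themselves HOXA5 and HOXD8 were closer, at 0.28, than either was to HOXA7, at 0.45. With 6 arrays, and arrays that fall apart into high and low sets, many genes share such a profile. Among the profiles nearest to HOXA5, HOXD8 held place 14 and HOXA7 place 76. For HOXA7, HOXA5 and HOXD8 held places 20 and 21, and for HOXD8, HOXA5 and HOXA7 held places 15 and 155. Profiles were centred but not scaled, so unequal ranges also add to these distances.

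Genes that work with HOX proteins or set their expression gave no call between the labelled sites in limma, and among all the cofactor and regulator genes listed here only PSIP1 had an unadjusted p under 0.05, at 0.0397. TALE cofactors, which bind DNA beside HOX proteins, had 0 of 7 measured genes called in either direction, with 6 higher in mandibular cultures and a median of 0.11. PBX2 differed by 0.26 (SE 0.14), MEIS2 by 0.35 (SE 0.19) and MEIS3 by 0.11 (SE 0.15). Activators of HOX genes in the hindbrain and trunk had 0 of 5 called. EGR2, which drives HOXA2 and its paralogs in the hindbrain, measured 9.51 on tibial 1 and 7.48 to 8.08 on the other arrays, so its range of 2.03 came from a single array. CDX1 and POU5F1 differed by 0.20 (SE 0.23) and -0.06 (SE 0.14).

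Retinoic acid, made from vitamin A, switches on anterior HOX genes in embryos, and 0 of 10 measured pathway genes were called, 5 in each direction by mean. CRABP2, which carries retinoic acid to its receptors, measured 10.87, 9.90 and 10.95 on mandibular 1, 2 and 3 and 10.45, 10.04 and 9.38 on the tibial arrays. Tibial 3 was its lowest array, and its part in the HOX levels was not tested. RARA differed by 0.21 (SE 0.15) and RXRG, at levels of 2.70 and 2.89, by -0.19 (SE 0.15).

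Polycomb proteins keep HOX genes silent and Trithorax proteins keep them active. Of 14 measured Polycomb genes 0 were called, none had a range of 1 unit, and the median difference was 0.01. SUZ12, RNF2 and PCGF5 differed by 0.25 (SE 0.16), -0.30 (SE 0.19) and 0.24 (SE 0.18). Of 7 measured Trithorax genes 0 were called, with 6 higher in mandibular cultures. PSIP1, a chromatin reader that recruits such complexes, measured 8.66, 8.14 and 8.62 on mandibular 1, 2 and 3 and 7.56, 7.62 and 8.32 on tibial 1, 2 and 3. It was lowest on tibial 1 and 2, and its difference of 0.64 (SE 0.25) missed the adjusted threshold (adjusted p = 0.9995 in limma). RBBP5 and WDR5 differed by 0.19 (SE 0.16) and 0.21 (SE 0.19). Without mandibular 2 and tibial 3, 0 genes of the cofactor, activator, retinoic acid, Polycomb and Trithorax lists were called in limma. PSIP1 was at 1.05 (adjusted p = 0.0772 in limma). In that fit 8 of the 43 genes of these lists had an unadjusted p under 0.05 in limma, as did 2617 of the 27558 probe sets.

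Markers of macrophages moved with part of the HOX pattern. Of 12 measured macrophage and monocyte markers 12 were lower in mandibular cultures by mean, 0 were called in limma although 7 had an unadjusted p under 0.05, and 10 had mandibular 2, tibial 1 and tibial 2 as their 3 highest arrays. The mean level of the list was 8.70 on tibial 1, 8.29 on tibial 2 and 5.64 on tibial 3. It was 6.44 on mandibular 2 and 5.04 and 5.08 on the other mandibular arrays. Its summed level, as log2 of the sum, was 9.13 to 10.76 in mandibular and 9.80 to 13.15 in tibial cultures. The defining markers CD14 and CSF1R measured 7.29 and 6.67 on mandibular 2 and 8.57 and 8.86 on tibial 1. On mandibular 1, mandibular 3 and tibial 3 CD14 measured 7.23, 7.17 and 7.38, so mandibular 2 was not among its 3 highest arrays. The part of these cells in the HOX levels was not tested. Osteoclast markers, with 7 of 8 lower in mandibular cultures, had list means of 7.72 and 7.27 on tibial 1 and 2, 6.10 on mandibular 2 and 5.33 to 5.53 on the other arrays, and their part was not tested.

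**Figure D5:**
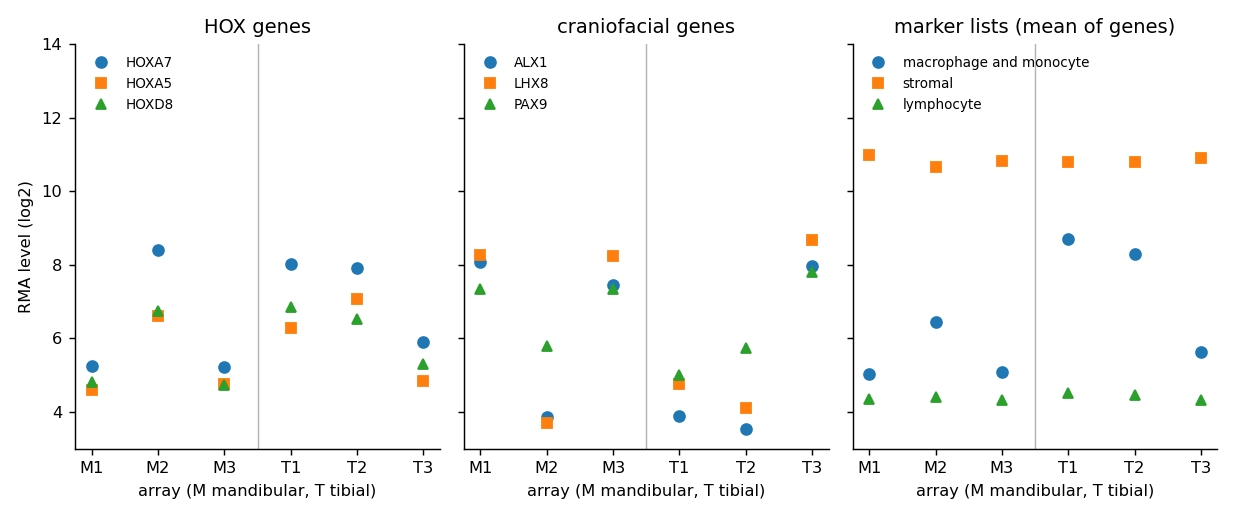
RMA level (log2) on each array (M mandibular, T tibial, with the replicate number) of HOXA7, HOXA5 and HOXD8, of the craniofacial genes ALX1, LHX8 and PAX9, and mean level of 3 marker lists. The HOX genes are high where ALX1 and LHX8 are low, macrophage markers are highest on tibial 1 and 2, at 8.70 and 8.29, and the mean of the stromal list lies between 10.67 and 10.97 on all arrays.

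Stromal markers, which define the labelled cell type, had a list mean between 10.67 and 10.97 over 9 measured genes, and the defining marker THY1 lay between 10.50 and 10.70. Single stromal markers varied more, and 5 of the 9 had a range of at least 1 unit. NT5E, the other defining marker, ranged from 7.05 to 9.13 with mandibular 2, tibial 1 and tibial 2 highest, DCN from 9.99 to 11.98 with mandibular 2 lowest, and CD44 from 6.44 on tibial 1 to 8.19 on mandibular 3. Their part in the HOX levels was not tested. List means of lymphocyte markers lay between 4.32 and 4.52, of endothelial markers between 4.56 and 5.01 and of epithelial markers between 4.93 and 5.26. The endothelial marker PECAM1, which macrophages also carry, was lower on the mandibular arrays without overlap, at 5.58 to 5.63 against 5.84 to 6.36 (unadjusted p = 0.0112, adjusted p = 0.9995 in limma). TEK, another endothelial gene, was highest on tibial 1 and 2, at 4.67 and 4.02. KDR, of the same list, ran the other way without overlap, at 3.45 to 3.76 on mandibular and 2.81 to 3.44 on tibial arrays. Of the 5 measured endothelial markers 3 had lower and 2 had higher mandibular means. The skeletal muscle list had only 2 measured genes, of which ACTA1 was at 8.20 on mandibular 2 and 5.48 to 6.91 elsewhere while MYOD1 stayed between 4.68 and 5.09. Its part in the HOX levels of mandibular 2 was not tested. Of the neural and Schwann list only SOX10 and GFAP were measured, and the list mean lay between 5.71 and 5.98.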

How the data were processed

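The authors deposited log2 values for 27558 probe sets on 6 arrays. Per the submitters' processing notes they used Transcriptome Analysis Console 3.0 and Affymetrix Expression Console, and the values come from RMA. RMA makes the arrays' distributions equal, so a shift shared by all genes is lost. The sources used here give no settings, probe annotation or genome build, so no coordinates are printed.

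Of the probe sets, 13157 had a single symbol in GEO's platform annotation, 523 had several and 13878 had none. Entrez numbers updated 7 symbols. The probe set with the highest mean stood for each gene. Cluster neighbours came from RefSeq's annotation of Sscrofa11.1.

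Sites were compared with limma 3.58.1 in R 4.3.3 (lmFit, eBayes, two-sided), unpaired, and adjusted over all probe sets at 0.05. The fit was tested on simulated data with independent noise in each probe set. No simulated array lay with the other site, so the simulation does not cover such arrays. Members and lists were chosen with earlier results of these data known. Named genes were the members, other HOX genes ranging over 1 log2 unit or more, the 3 smallest p in each related list, the 3 nearest profiles and the label check genes; BARX1 and ALX4 belong to the latter and PAX3 was not measured. Other genes were named after their values were seen. Where nothing ties cultures to animals, p-values measure the spread between these samples. No label says that replicate numbers pair the arrays. Deviations from site means correlated at -0.03, 0.21 and 0.47 for numbers 1, 2 and 3. For unequal numbers they correlated at -0.49 to 0.36. With 3 arrays per site these values cannot show whether the numbers pair the arrays. Precision is limited by having 3 arrays per site.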

Additional observations from a re-analysis of the deposited data

How the results depend on the processing

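Under other settings the 8 members kept their direction, and none was called. These were arrays centred on their medians, filters at the lower quartile and at the median of mean levels, other variance moderation, array weights, the replicate number as a block, the mean of all probe sets of a gene (each member has 1) and each array left out. HOXA7 ranged from -1.12 to -0.95 in these fits with all 6 arrays. The filter at the lower quartile removed HOXB7, and that at the median also removed HOXA2, HOXA3 and HOXB3, leaving 4 of 4 members lower in mandibular cultures. With the replicate number as a block, HOXA7 was -0.98 (SE 0.63), 0 probe sets were called, and no call changed; 1511 had an unadjusted p under 0.05 against 836 in the unpaired fit. In single omissions the count of calls over all probe sets ranged from 0 to 2, with 2 without tibial 3 and 1 without tibial 1, and the count of members with lower mandibular means was 6 in each. The members' differences in those 6 fits ranged from -0.58 to -0.29 for HOXA2, -0.40 to -0.14 for HOXA3, -0.45 to -0.17 for HOXA4, -1.38 to -0.24 for HOXA5, -2.03 to -0.45 for HOXA7, 0.06 to 0.28 for HOXB3, 0.32 to 0.45 for HOXB7 and -1.44 to -0.44 for HOXD8. With both mandibular 2 and tibial 3 left out, added after seeing the data, 195 probe sets were called, with HOXA7 at -2.72 and HOXD8 at -1.91; the cause was not tested. Levels near those of genes of other organs, as in HOXB7, limit what these arrays can show.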
